A study of Homo sapiens with 8 samples.

Results

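Wide H3K36me3 domains that were still called after depletion of SETD2 are described here. They are the peaks of 20 kb or more in the peak list of the SETD2 knockdown cells, and they numbered 326 of the 23488 peaks in that list. They were chosen by the measured width of the knockdown peaks, so their widths, tag counts, densities and fold enrichments in the knockdown are given as a description and are not tested. The ChIP-seq libraries came from the human liver cancer line HepG2, in cells that stably expressed an shRNA against SETD2 or a non-specific control shRNA after lentiviral infection and puromycin selection. Both kinds of cell had 2 immunoprecipitated and 2 input libraries, and both replicates had been merged before peaks were called. With 1 list for each condition, replicate error cannot be estimated and the conditions cannot be tested against each other. The labels do not say how many shRNAs against SETD2 were used, and the remaining amount of SETD2 was not analysed here.

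SETD2 is the methyltransferase that trimethylates lysine 36 of histone H3 as it travels with elongating RNA polymerase II, so the mark lies over the bodies of transcribed genes and usually builds up towards their 3′ ends. Readers of the mark include the DNA methyltransferase DNMT3B, the chromodomain protein MRG15, which brings histone deacetylase complexes to gene bodies, and METTL14, a subunit of the enzyme that writes m6A on RNA. A wide domain thus usually marks a long transcribed gene or neighbouring transcribed genes. Positions are in hg19, no gene was assigned to a domain because gene coordinates on that build were not used here, and for the same reason no cell type marker gene was checked.

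The 326 domains ran from 20.05 to 48.7 kb, with a median of 23.8 kb and quartiles of 21.4 and 27.7 kb. Most lay close to the limit: 196 were under 25 kb, 50 reached 30 kb and 6 reached 40 kb. In the control list, 841 peaks reached 30 kb and 328 reached 40 kb. The domains made up 1.39% of the knockdown peaks, 7.42% of the covered length (8.21 Mb) and 10.9% of the tags in knockdown peaks. The 2073 control peaks of 20 kb or more made up 5.86% of the control peaks and 28.0% of the control length. Just inside the limit lay chr1:108713468-108733514 with 20047 bp and chr1:10460579-10480636 and chr17:18178950-18199007 with 20058 bp each. Just outside it lay chr10:5823517-5843460 with 19944 bp, chr6:7591652-7611593 with 19942 bp and chr14:73563014-73582931 with 19918 bp.

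The domains held 1429 to 8905 tags each, with a median of 2528. Tag density is given as tags per kb per 1000000 filtered tags throughout. It ran from 1.04 to 3.53 in the domains, with a median of 1.53 and quartiles of 1.34 and 1.84, and 54 domains reached 2. Density outside knockdown peaks was 0.337, so the least dense domain stood at 3.09 times and the median domain at 4.55 times that level. Density was higher in wider classes of the knockdown list. The median was 0.760 in peaks under 2 kb, 0.890 from 2 to 5 kb, 1.07 from 5 to 10 kb and 1.28 from 10 to 20 kb. The authors' fold enrichment over the local input had a median of 7.65 in the domains (quartiles 6.50 and 9.04), 5.6 in the class from 10 to 20 kb and 3.71 over the whole knockdown list. The highest point of a domain had no fixed place in it, with a median at 49.9% of the width from the left end and quartiles of 31.1 and 66.3%.

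The widest domain was chr1:182809478-182858171, at 48.7 kb and 8504 tags. Its density was 2.60 in the knockdown, and the single control peak over it, 48.7 kb wide as well, had 5.68. The next was chr10:120791805-120835224 at 43.4 kb, with 2.36 in the knockdown and 5.28 in a control peak of 48.7 kb. These domains kept nearly the whole control width at less than 0.5 times the control density. At chr1:154194182-154237493, 43.3 kb wide, the densities were 2.11 and 3.68, and at chr19:41771920-41814198, 42.3 kb wide, they were 1.84 and 4.30. The fifth, chr21:34917779-34959572, was 41.8 kb wide and lay over 2 control peaks, the wider of 32.7 kb, with densities of 1.78 and 3.43.

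The densest domain was chr17:80034480-80056094, with 5120 tags in 21.6 kb. Its density was 3.53 in the knockdown and 6.34 in the control. The next, chr16:87861577-87902800, held the most tags of all domains, 8905 in 41.2 kb. There the knockdown density of 3.22 stood close to the control density of 3.79, a log2 ratio of -0.24 (95% interval -0.28 to -0.19). The other dense domains had lost more: chr12:53846401-53875136 had 3.20 against 6.55, chr17:45728059-45762183 had 3.10 against 7.65 and chr20:17921296-17941706 had 3.02 against 7.30. Dense domains of the knockdown were thus mostly among the densest of the control in raw tag density, which is not corrected for input. In the order given, their knockdown fold enrichments over input were 8.26, 9.55, 11.99, 8.11 and 6.24, against a median of 7.65 over all domains. Input coverage at these places was not analysed here.

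The 5 domains with the highest fold enrichment over input, 14.50 to 16.72, were spread over 5 chromosomes. The first was chr9:33327297-33350293, 22997 bp wide, and the control peak over it was 59.0 kb wide and carried another wide domain as well. The others were chr12:53400765-53435420, 34.7 kb wide under a control peak of 34.5 kb, chr5:899705-929389, 29.7 kb wide over 2 control peaks of at most 11.3 kb, chr1:67871846-67896063, 24.2 kb wide under a control peak of 21.3 kb, and chr11:3378807-3399733, 20.9 kb wide under a control peak of 21.2 kb. Log2 density ratios of knockdown over control in these 5 ran from -1.36 at the chromosome 11 domain to 0.25 at the chromosome 5 domain, so a high enrichment in the knockdown did not go with any one degree of change from the control.

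Control peaks lay over nearly all of the domains. At least 1 overlapped by 1 bp or more in 302 of 326, or 92.6% (exact Clopper-Pearson 95% interval 89.2 to 95.2%, counting error only), against 83% of all knockdown peaks and 84.9% (83.1 to 86.5%) of the class from 10 to 20 kb. A wider peak is more readily overlapped by 1 bp. The median domain was covered over 100% of its width (lower quartile 98.50%). That median was 100% as well in all knockdown peaks (lower quartile 92.6%) and in the class from 10 to 20 kb (96.9%). Coverage was under 50% in 26 domains (7.98%), against 17.9% of all knockdown peaks and 15.7% of the class from 10 to 20 kb. Of the 326, 175 (53.7%) lay wholly inside control peaks, against 65.3% of all knockdown peaks. Those 175 all lay inside a single control peak, a further 100 overlapped 1 control peak and reached beyond it, 27 overlapped 2 or more and 24 overlapped none.

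The domains inside 1 control peak took up a median of 78.3% of its width (quartiles 61.0 and 93.5%). The 100 that reached beyond theirs did so by a median of 0.268 kb (quartiles 0.106 and 0.632 kb). Over all 275 domains with exactly 1 control peak, the width was a median of 90.7% of the control width. It was 90% or more in 141 of them and under 50% in 25, and in 92 both ends lay within 1 kb of the control ends. The highest points of the knockdown and control peaks lay a median of 1.07 kb apart (quartiles 0.136 and 5.41 kb), and within 1 kb in 132 of the 275. Both bounds were thus shared to within 1 kb in a minority of these pairs, although most domains had most of the control width. The domains were chosen for a knockdown width of 20 kb or more. Over the 302 domains with a control peak, the widest such peak had a median width of 30.01 kb (quartiles 23.4 and 36.6 kb). A large share of the control width therefore follows in part from the choice, and whether width was retained was not tested.

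**Figure D1:**
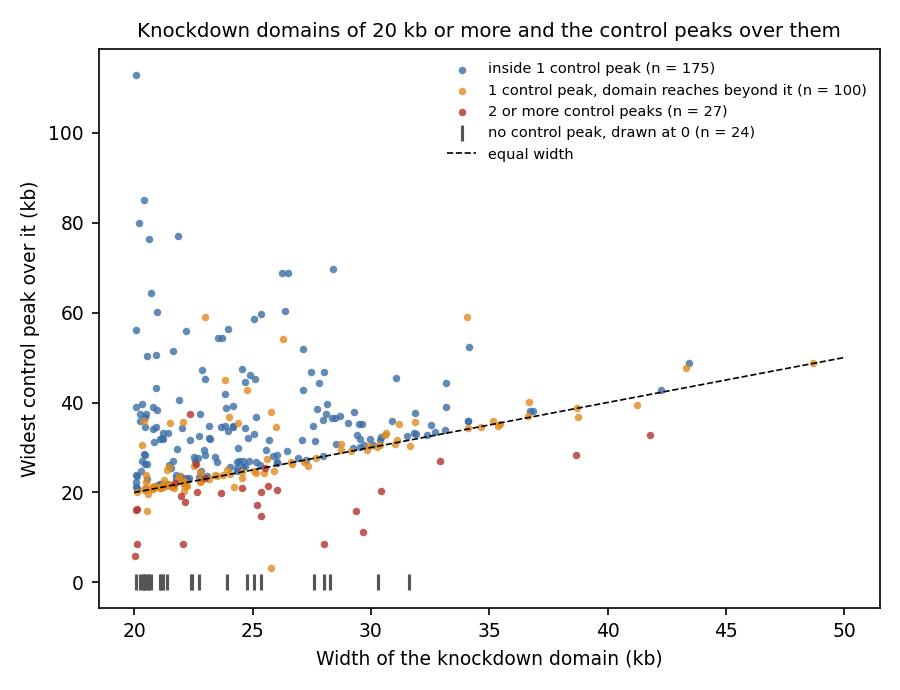
Width of each of the 326 knockdown domains (x axis, kb) against the widest control peak over it (y axis, kb), coloured by how the domain lies on control peaks. Points of the 175 domains inside 1 control peak lie above the line of equal width, most domains over 2 or more control peaks lie below it, and the 24 without a control peak are drawn at 0.

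Some domains lay over what the control list had as separate peaks. Of the 326, 27 (8.28%, 5.53 to 11.8%) overlapped 2 or more control peaks, against 2.07% of all knockdown peaks and 4.14% of the class from 10 to 20 kb. A wider peak more readily overlaps several. The share was 0.763% in peaks under 2 kb, 1.55% from 2 to 5 kb and 3.50% from 5 to 10 kb. Counting only control peaks over 10% or more of the domain, 6.13% of the domains overlapped 2 or more. The domain at chr1:108713468-108733514 lay over 5 control peaks, the widest of 5.96 kb, which together covered 74.1% of it. At chr1:101470464-101490598 there were 4 control peaks and at chr1:78025778-78051126 there were 3. In all, 15 of the 27 were on chromosome 1. The domains over 2 or more control peaks had a median knockdown density of 1.48, next to 1.49 in those inside 1 control peak, 1.78 in those that reached beyond 1 and 1.32 in those with none. Their median control density was 1.81, below the 2.91 of those inside 1 control peak and the 3.24 of those that reached beyond 1. The share over 2 or more control peaks depended on the settings: it was 3.28% with an FDR of 5% or less, 5% with a fold enrichment of 5 or more, 4.69% without chromosome 1 and 3.50% without the stretches of chromosomes 1 and 5 that are described further on. The shares of 3.28% and 3.50% are below the 4.14% that the class from 10 to 20 kb had without these limits.

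In the other direction, 331 control peaks lay over the domains, 281 of them 20 kb or more wide themselves. Of these control peaks, 4 each carried a pair of wide domains, with gaps of 132 bp (chr4:83780211 to 83780344), 208 bp, 2243 bp and 5698 bp between the pair. The gap of 208 bp, after chr1:67466911-67489256, lay in a control peak of 37.5 kb and that of 132 bp in one of 68.8 kb. The first domain of the pair with the gap of 208 bp also lay over a second control peak.

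Of the 2073 control peaks of 20 kb or more, the 281 with a wide knockdown domain were 13.6% (12.1 to 15.1%). A further 1464 (70.6%) carried only narrower knockdown peaks and 328 (15.8%) carried none. The control libraries did not enter the choice of the domains. In them, the 281 had a median density of 2.99 (quartiles 2.53 and 3.75), above the 2.08 (1.77 and 2.52) of those with only narrower peaks. The 328 without any knockdown peak were as dense as the 281, with a median of 3.24 (2.53 and 3.99), and as wide, with a median of 31.6 kb against 30.5 kb. The median fold enrichment within the control list was 17.1 for the 281, 11.7 for those with narrower peaks and 14.2 for those with none.

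Both ways of ending up rose with control density. From the lowest to the highest quartile of control density, the share of wide control peaks that carried a wide knockdown domain went from 1.16% (0.425 to 2.50%) through 7.53% and 17.2% to 28.4% (24.5 to 32.5%). The share with no knockdown peak at all went from 4.43% (2.83 to 6.58%) through 6.18% and 13.3% to 39.4% (35.1 to 43.7%). By raw tag density, the densest wide control peaks were therefore more often called either wide or not at all in the knockdown than the less dense ones. That density is not corrected for input. By quartile of control fold enrichment over the local input, the share with no knockdown peak rose far less, with 12.95, 10.9, 18.8 and 20.7%. The share with a wide knockdown domain still rose steeply, with 2.29, 4.47, 14.95 and 32.6%. Peaks are not replicates, and no p-value was computed. A place without a call has no knockdown density in these lists, and wide domains with many tags could score near the caller's limit, as the next values show. The part of the scores in the missing calls was not tested.

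The scores of the domains were low for their tag counts. The score, a deposited value, is 10 times the negative log10 of a peak's p-value, and 50 is the limit of the list. Of the 326, 50 (15.3%, 11.6 to 19.7%) scored under 100, against 33.1% of all knockdown peaks, most of which hold far fewer tags. In the class from 10 to 20 kb that share was 7.96% (6.76 to 9.29%), and among wide control peaks it was 6.03% (5.04 to 7.14%). A domain scored under 100 in spite of a median of 2410 tags and a median density of 1.43, slightly above the median of 1.41 in the 158 domains with scores of 100 or more but under 500. The domain at chr19:41771920-41814198 scored 82.5 with 5228 tags and a fold enrichment of 8.97. The widest domain scored 228.83 with a fold enrichment of 12.18. The false discovery rate (FDR) of the authors' caller follows the score: 61 domains (18.7%, 14.6 to 23.4%) had an FDR of 5% or less, against 5.3% of all knockdown peaks and 26.8% of the class from 10 to 20 kb. Since scores of wide domains reach down to the limit of the list, the number of domains also depends on that limit. Its part in the absence of a peak from either list was not tested.

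**Figure D2:**
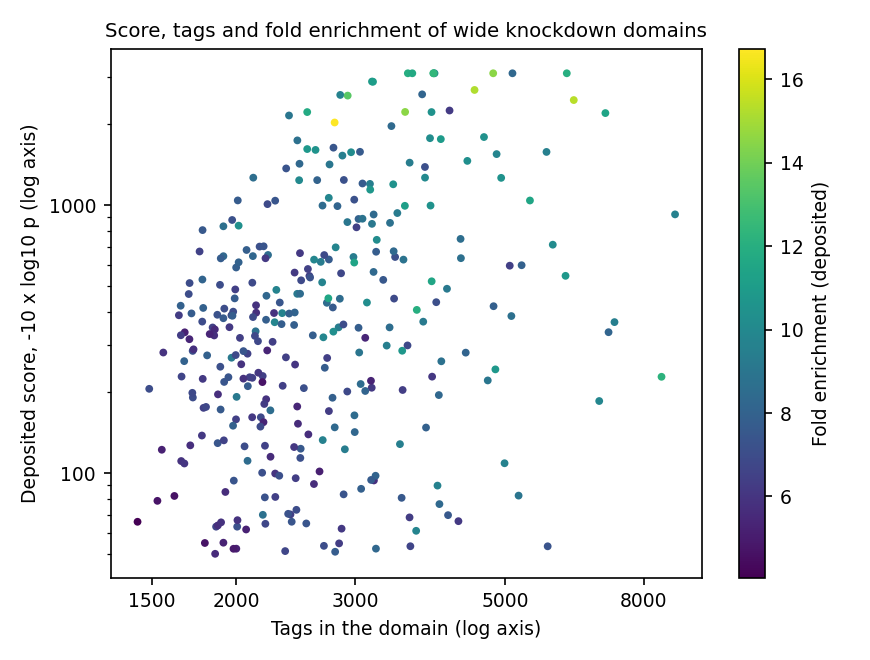
Deposited score of each of the 326 domains (y axis, log scale) against its tags (x axis, log scale), coloured by fold enrichment. Domains with about the same number of tags span scores from near 50 to 3100, and the domain with the most tags, 8905, scored 922.96.

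Tag density was lower in the knockdown than in the control peaks over the same place for nearly all domains. Over the 302 domains with a control peak the log2 ratio of knockdown over control had a median of -0.93, quartiles of -1.09 and -0.76 and a range from -1.62 to 0.56. The median density was 2.93 in the control. The knockdown was lower beyond counting error, meaning that the exact conditional binomial 95% interval of the ratio lay below 0, in 290 domains (96.0%), against 90.6% of all knockdown peaks with a control peak and 97.2% of the class from 10 to 20 kb. Wider peaks hold more tags, so a ratio of one size is more often beyond counting error in them. In 116 domains (38.4%, 32.9 to 44.2%) the knockdown was lower by 2-fold or more, against 24% of all such knockdown peaks and 33.7% (31.4 to 36.1%) of the class from 10 to 20 kb. These intervals compare 2 pooled libraries and not the conditions. Densities use the peak bounds of each list separately, and the domains were chosen for their width in the knockdown. With the density outside peaks taken off in each condition, the median ratio was -1.17 in the domains and -1.15 in all knockdown peaks, so the gap between these groups seen in raw densities was nearly gone.

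Across the 302 domains the densities of both conditions followed each other, with a Spearman rho of 0.73 as a description over regions of the same libraries. Neither density is corrected for input. In 3 groups of about equal size ordered by control density, from low to high, the median knockdown density was 1.35, 1.49 and 2.00 and the median log2 ratio was -0.72, -0.96 and -1.08. The control density enters both sides of that last relation. The ratio hardly moved with the width of the domain (rho -0.04).

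**Figure D3:**
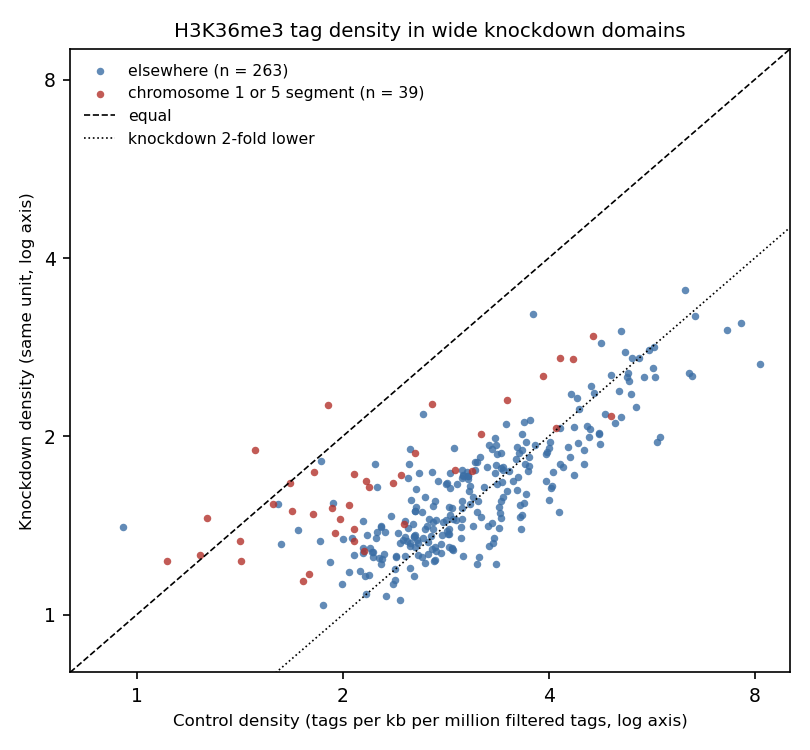
Knockdown density (y axis, log scale) against control density (x axis, log scale) for the 302 domains with a control peak, in tags per kb per 1000000 filtered tags, with red points for domains on chromosome 1 from 60 to 130 Mb or chromosome 5 up to 50 Mb. Most points lie near the line of a 2-fold lower density, and most of the points on or above the line of equal density are red.

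The largest losses were at chr17:38543857-38573553, where 8.15 in the control, the highest control density over any domain, stood against 2.65 in the knockdown. The log2 ratio was -1.62 (-1.67 to -1.57). At chr1:24971086-25001454 the densities were 5.76 and 1.96, and at chr14:21819145-21850954 they were 5.82 and 2.00, with ratios of -1.56 and -1.54. At chr13:31710438-31733254 they were 4.15 and 1.49. At chr5:134005134-134026978 they were 3.35 and 1.22, where the control value was taken over a peak of 77.0 kb that reaches far beyond the domain of 21.8 kb. The first 4 kept nearly the whole width of the control peak.

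In 12 domains the density was not lower beyond counting error, and all 12 were on chromosomes 1 and 5. Of these, 5 were denser in the knockdown beyond counting error (1.66% of 302, 0.540 to 3.82%). Among knockdown peaks with a control peak, that share was 0.321% (0.104 to 0.748%) in the class from 10 to 20 kb and 0.118% in the whole list. The highest ratio was at chr5:58264982-58290755, a domain of 25.8 kb with a density of 1.41, where the control list held a single peak of 3.30 kb with 151 tags and a density of 0.956. The log2 ratio was 0.56 (0.32 to 0.81), and that control peak covered 12.8% of the domain. At chr1:70877626-70908036 the densities were 1.90 in the knockdown and 1.49 in the control (log2 ratio 0.35, 0.27 to 0.43), with 82.4% of the domain covered. At chr5:899705-929389 they were 2.26 and 1.90, at chr5:38515605-38543636 they were 1.46 and 1.27, and at chr1:108713468-108733514 they were 1.23 and 1.11. All of these 5 were covered in part, from 12.8 to 82.4%. In the other 7 the interval of the ratio spanned 0, among them chr1:155915438-155941328, with 1.82 in the knockdown and 1.86 in a single control peak over 95.8% of the domain.

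Chromosome 1 held 70 of the 326 domains, or 21.5% (17.1 to 26.3%). It held 13.2% of all knockdown peaks and 9.45% of the wide control peaks. Chromosome 5 followed with 30 domains, chromosome 12 with 27, chromosome 19 with 22 and chromosome 17 with 21. Chromosomes 18 and 20 held 2 each, and chromosomes 4, 13, 14 and X 4 each. As a share of the wide control peaks of the same chromosome, those that carried a wide knockdown domain were 26.5% (20.5 to 33.3%) on chromosome 1, 23.9% (15.4 to 34.1%) on chromosome 19, 22.7% (11.5 to 37.8%) on chromosome 22, 21.9% (14.4 to 31.0%) on chromosome 12 and 21.1% (13.98 to 29.7%) on chromosome 5. They were 2.74% (0.334 to 9.55%) on chromosome 20, 3.23% (0.0816 to 16.7%) on chromosome 18, 3.45% (0.717 to 9.75%) on chromosome 4 and 6.25% (3.16 to 10.9%) on chromosome 2. Chromosome 13 with 5.88% (1.23 to 16.2%) and chromosome 6 with 5.93% (2.42 to 11.8%) were low as well. The interval of chromosome 1 lies above those of these low chromosomes and of some not listed here, such as chromosome 16 with 7.76% (3.61 to 14.2%). It overlaps those of the other 4 high ones.

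**Figure D4:**
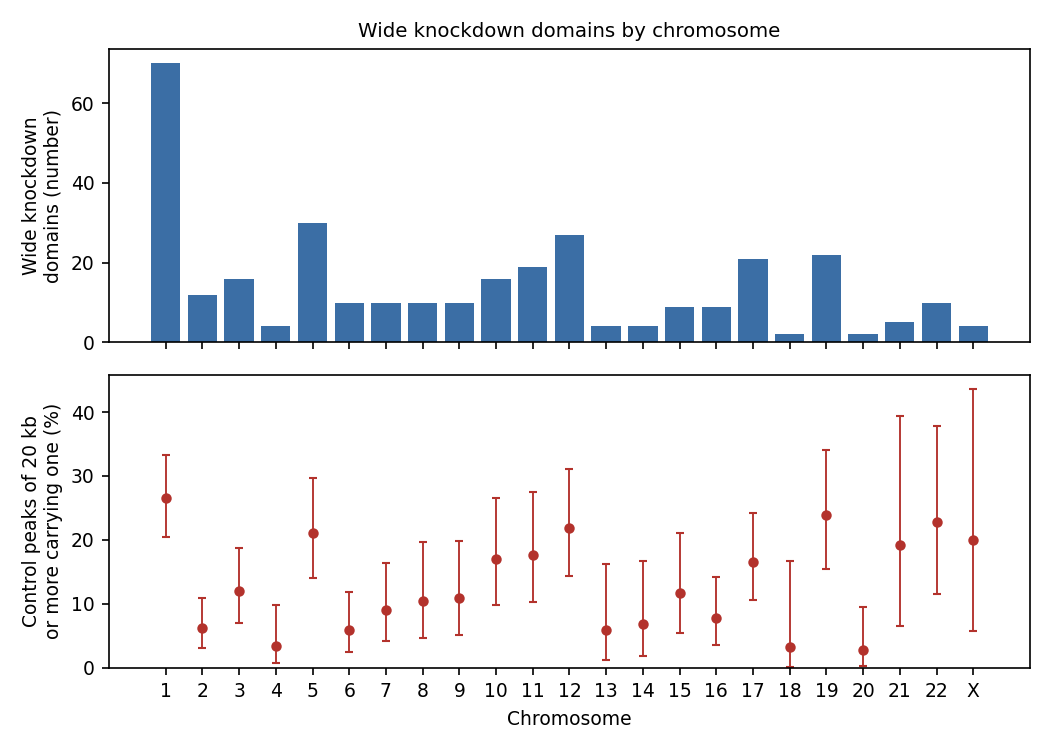
Number of wide knockdown domains on each chromosome (upper panel) and the share of control peaks of 20 kb or more that carry one (lower panel, percent, bars are exact 95% binomial intervals). Chromosome 1 has 70 domains and a share of 26.5%, and chromosome 20 has 2 and a share of 2.74%.

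The domains were mostly scattered. Neighbours on a chromosome lay a median of 2.95 Mb apart (quartiles 0.827 and 8.81 Mb), and 21 of 303 gaps were under 100 kb. Of the 271 windows of 1 Mb with a domain, 39 had 2 and 8 had 3. Of those 8, 4 were on chromosome 1, in the windows that start at 67000001, 109000001, 154000001 and 155000001, and the fullest of them held 93.0 kb of wide domains in the window from 154000001.

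The high ratios clustered along chromosomes 1 and 5, in stretches that were picked after the ratios had been seen: chromosome 1 from 60 to 130 Mb and chromosome 5 up to 50 Mb. The 27 domains with a ratio in the former had a median log2 ratio of -0.58 (quartiles -0.66 and -0.30), and the 12 in the latter -0.28 (-0.46 and -0.08). On the rest of those chromosomes the medians were -0.85 (37 domains) and -1.02 (17 domains), and outside both stretches the median over 263 domains was -0.97. Narrower knockdown peaks in these stretches had higher ratios too. Their median was -0.33 over 489 peaks of the chromosome 1 stretch and -0.35 over 259 of the chromosome 5 stretch, against -0.76 over 18447 narrower peaks elsewhere. The narrower peaks, taken as 1 class, thus shifted there as well. Input coverage along these stretches was not analysed here, and its part in the ratios was not tested. The median density of the domains in the knockdown was 1.66 inside the stretches and 1.52 outside them. That of the control peaks over the domains was 2.08 inside and 3.003 outside. The domains were chosen by a wide call in the knockdown, and the stretches were picked after the ratios had been seen. These medians therefore cannot place the difference in one condition.

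These stretches also held many of the unusual domains. They contained 40 of the 326 domains, 17 of the 27 that overlapped 2 or more control peaks, 9 of the 12 that were not lower in the knockdown and 1 of the 24 without a control peak. Because the stretches were picked after the ratios had been seen, the 9 of 12 follows in part from that choice. The intervals of the shares below do not allow for it. Of the 38 wide control peaks in the chromosome 1 stretch, 19 carried a wide knockdown domain (50%, 33.4 to 66.6%), and of the 25 in the chromosome 5 stretch 8 did (32%, 14.9 to 53.5%), against 12.6% (11.2 to 14.2%) of the 2010 outside both. Without both stretches, chromosome 1 held 14.7% of the domains, and 3.50% of the domains overlapped 2 or more control peaks. The share that overlapped 2 or more control peaks thus rested in part on these stretches. Leaving out a stretch of chromosome 1 takes away its domains, so the lower share of that chromosome follows in part from the step itself. On the rest of chromosome 1, 1.99% of the 2114 knockdown peaks were wide domains, against 1.30% of the 22022 outside both stretches. Of the 158 wide control peaks there, 20.9% (14.8 to 28.1%) carried a wide knockdown domain. The median log2 density ratio was -0.97 without both stretches and -0.93 with them.

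Each domain was then set beside the narrower knockdown peaks of its own window of 10 Mb, where at least 10 had a control peak. Of 301 domains, 246 had a lower log2 ratio than the median of those neighbours, and the median difference was -0.22 (quartiles -0.37 and -0.06). Outside both stretches it was -0.22 over 262 domains and in the chromosome 1 stretch -0.22 over 27. In the chromosome 5 stretch it was 0.08, and 4 of the 12 domains there were below their neighbours. These are differences of raw densities, and raw density ratios in both groups take in the density outside peaks, where the control had 0.235 and the knockdown 0.337. With that density taken off, the median ratio was -1.17 in the domains and -1.15 in all knockdown peaks, but the windows were not compared in this way. Peak widths differ as well. The median width was 0.92 of the widest control peak over it in the domains and 0.40 in all knockdown peaks.

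**Figure D5:**
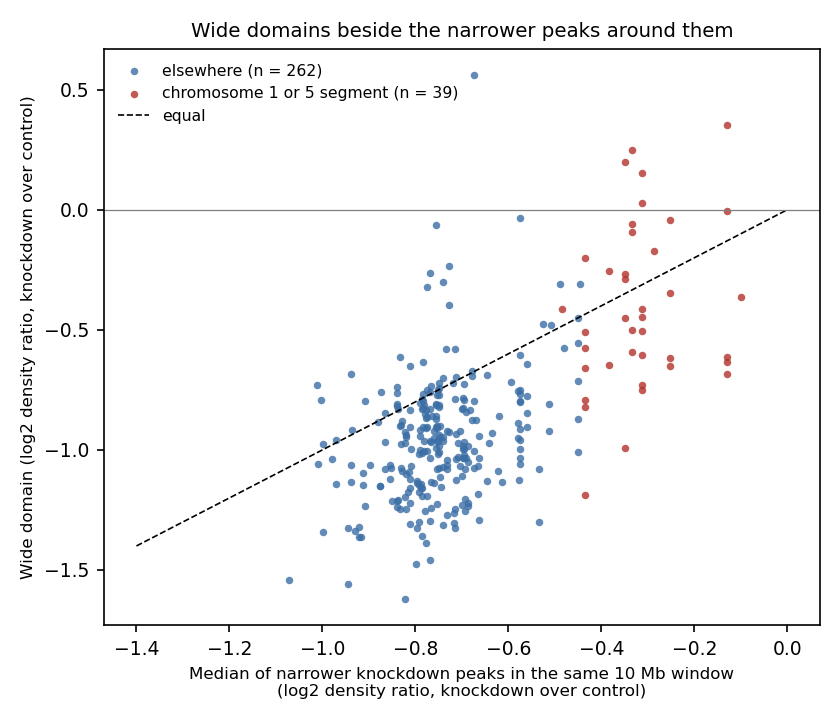
Log2 density ratio of each wide domain (y axis) against the median ratio of narrower knockdown peaks in the same window of 10 Mb (x axis), for the 301 domains with at least 10 such peaks. Most points lie below the line of equal ratios, and the red points of the chromosome 1 and 5 stretches lie to the right, where narrower peaks have higher ratios as well.

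No control peak lay over 24 of the domains (7.36%, 4.77 to 10.8%), against 17.0% of all knockdown peaks and 15.1% of the class from 10 to 20 kb. The highest in fold enrichment were chr1:171523697-171551314, with 2684 tags and a density of 1.45, and chr11:47838623-47868905, with 2980 tags and a density of 1.47. They were followed by chr6:159000454-159021830, with a density of 1.38, chr12:50851530-50872229, with 1.37, and chr11:93423723-93451991, with 1.34. The 24 lay on 12 chromosomes, 6 of them on chromosome 1 and 4 on chromosome 11, and the widest, chr13:113885640-113917248, was 31.6 kb. Their densities ran from 1.12 to 1.57 and their fold enrichments from 5.19 to 9.59. They sat low among the domains, with a median density of 1.32 (quartiles 1.23 and 1.45) against 1.53 over all 326, a median fold enrichment of 6.70 against 7.65 and a median score of 214 against 350.1. None had an FDR of 5% or less, and the lowest FDR was 11.6%.

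The nearest control peak lay a median of 32.6 kb from these 24 domains, within 5 kb of 3 of them and beyond 100 kb of 3. The closest was 0.316 kb from the chromosome 13 domain and the farthest 208 kb from chr11:101990567-102010828. The peak lists give no density where no peak was called, so the control signal at these 24 places is not known here, and they cannot be called gains. In the control list as well, 328 wide peaks with a median density of 3.24 had no counterpart in the other list.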

How the data were processed

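The 4 groups of 2 samples (control and SETD2 knockdown, H3K36me3 immunoprecipitate and input) gave 1 peak table and 1 shorter list per condition. Per the labels' protocols, virus of 48 and 72 h was used with 4 µg/mL of polybrene, followed by puromycin at 1 µg/mL. The submitters' processing notes name Bowtie 1.1.2, FastQC 0.11.5 and build hg19. MACS 1.4.2, per the file headers, called peaks from merged replicates at a p-value limit of 1e-05, with 1 tag per position. The deposited tag counts are whole numbers per peak, not normalized, out of 47880817 filtered control and 67053273 knockdown tags. The deposited score is minus 10 times the log10 of a p-value, the deposited fold enrichment is a ratio to the local input, and the deposited FDR is in percent. The shorter knockdown list held exactly the 61 domains with an FDR of 5% or less.

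Domains were overlapped with control peaks (1 bp or more, bounds inclusive). Control tags and lengths were summed over the peaks above a domain. Intervals are exact 95% intervals (Clopper-Pearson, or conditional binomial for ratios) and cover counting error only; the sources do not say whether replicates were separate cultures. Python 3.11.15, pandas 2.3.3, NumPy 2.4.6, SciPy 1.17.1 and matplotlib 3.10.9 were used, and the overlap and interval steps were tested on simulated data. Named domains are the 5 widest, the 5 highest in fold enrichment, the 5 densest, the 5 lowest and 5 highest in ratio, the 5 most enriched without a control peak and the 3 nearest each side of the limit; others named were chosen after their values were seen. The members and lists were chosen with earlier results of these data known. Gene lists and markers set for an annotation on hg19 were not used, since the gene table at hand is on GRCh38.p14, and no sequence was read for the same reason. Alternatives are given in the closing section.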

Additional observations from a re-analysis of the deposited data

How the results depend on the processing

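No paired analysis was possible because peaks were called on merged replicates, which also leaves no replicate to take out. The results that follow moved with the limits set, and the cause was not tested unless fewer or more peaks follow from the limit itself. The number of domains was 799 at 15 kb or more, 50 at 30 kb or more, 61 with an FDR of 5% or less and 1259 with peaks merged within 3000 bp. The share with a control peak was 89.0% at 15 kb, 96.0% at 30 kb, 100% with the FDR limit and 84.7% with merged peaks. The median covered share fell to 99.3% with the FDR limit. The median log2 density ratio was -1.01 at 30 kb, -0.87 with the FDR limit, -0.83 with merged peaks, -0.97 where a single domain and a single control peak overlapped by 50% of both (157 pairs), -1.17 with background taken off and -0.97 without chromosome 1. The share over 2 or more control peaks was 3.28% with the FDR limit, 5% with a fold enrichment of 5 or more, 4.61% with merged peaks, 4.69% without chromosome 1 and 3.50% without the stretches of chromosomes 1 and 5. The share on chromosome 1 was 17.0% at 15 kb, 31.1% with the FDR limit, 15.8% with merged peaks and 14.7% without the stretches. A score of 100 or more and chromosomes 1 to 22 alone left the 5 shares and medians within the interval of the reported value, with 276 and 322 domains. So did all tags as depth for the density ratio, a control peak over 10% of the domain for the share with a control peak and the share over 2 or more, and 50% coverage for the share with a control peak. Leaving out chromosome 1 or the stretches, and a score limit on the knockdown list alone, were chosen after the data were seen.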
